A study of Homo sapiens with 8 samples.

Results

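The libraries described here are the 4 mono-culture libraries of a series of 8 bulk RNA-seq libraries, taken by their label: microglia grown alone, 1 library from each of 4 batches. The cells were derived from H1, an established human embryonic stem cell line, although the labels also call them iPSC-derived. They carried a GFP label and were kept for 2 weeks after plating with IL-34 at 100 ng/mL and M-CSF at 10 ng/mL, given 3 times a week. They were then isolated by fluorescence-activated sorting, and total RNA was sequenced. All 4 libraries come from this 1 cell line and hold sorted cells grown without neurons or other glia, so the spread below is the spread between batches of a single line.

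Microglia, the macrophages that live among the neurons of the brain and spinal cord, arise from yolk sac progenitors. They depend on signalling through the CSF1 receptor, which binds both IL-34 and M-CSF, and are shaped by the transcription factor PU.1 (SPI1). In the brain they survey synapses, take up debris and lipids through scavenger and TREM2 receptors, secrete complement C1q, and digest what they take up in lysosomes.

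The libraries held 30934258, 19281467, 33363972 and 17037481 counts (libraries 1 to 4). Levels of different genes are compared as TPM, the deposited length-scaled values rescaled to 1000000 in each library. Levels of 1 gene in different libraries are compared as CPM, counts scaled to 1000000 per library with TMM factors. Values after ± are SDs over the 4 libraries. Genes are ranked by spread only where their mean is at least 5 CPM. A gene is called expressed at 1 CPM or more in all 4 libraries and trace where it had a count but stayed below that. Where no library had a count, 3 counts over the group would be 0.0298 CPM, a limit that covers counting error only. Mitochondrially encoded genes took 4.84% to 8.44% of counts, with the highest share in library 2 and the lowest in library 3. Another 2.74% to 3.92% fell on 3 entries of chromosome 21 that lie inside 18S ribosomal RNA genes in RefSeq, the largest at chr21:8437629-8438551 (GRCh38). On the length-scaled values these entries took 9.79% to 15.6% and the mitochondrially encoded genes 24.1%, 29.7%, 19.7% and 22.7%, so the TPM of every other gene is a share of the rest. Between 13281 and 13616 entries reached 1 CPM in a library.

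The cells carried the markers of microglia and macrophages. Of 22 such markers, 20 were expressed. AIF1, the calcium-binding protein known as IBA1, stood at 1077, 801, 922 and 1173 TPM in libraries 1 to 4, and TREM2, the lipid-sensing receptor, at 705, 788, 695 and 578 TPM. P2RY12, a purinergic receptor used as a homeostatic microglia marker, was at 16.8, 24.1, 27.3 and 37.8 TPM, and TMEM119 at 27.1, 22.1, 23.6 and 24.1 TPM. The level of P2RY12 was therefore lowest in library 1 and highest in library 4, whereas TMEM119 lay within a narrow band. SALL1, a transcription factor that marks microglia in the brain, had no count in any library. CD68, a lysosomal protein used as a macrophage marker, had only 0.332, 0.639, 0.777 and 0.637 CPM. In GENCODE 29, 81.7% of the exonic bases of CD68 also belong to another entry on the same strand (AC016876.2), itself at 0.0665, 0, 0.201 and 0.174 CPM. Whether reads over such overlaps were set aside is not given in the sources used here, so the level of CD68 is uncertain. The same kind of overlap covered at least 50% of the exonic bases of 16 listed genes, 6 of them expressed.

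Markers of other cell types were mostly at trace or without a count. None of 16 markers of haematopoietic progenitors, erythroid cells and megakaryocytes was expressed, and none of 13 of neutrophils and mast cells. Their summed levels were 0.921 to 1.76 CPM and 1.89 to 2.95 CPM. The pluripotency genes SOX2, DPPA4, TDGF1, ZFP42 and PRDM14 had no count, and POU5F1 had 18 counts over all libraries. LIN28B, an RNA-binding protein that blocks let-7 processing, was expressed at 15.3 ± 3.84 TPM, unlike its paralogue LIN28A with 1 count. Among astrocyte and radial glia markers 7 of 15 were expressed, led by VIM (575 ± 53.2 TPM) and S100B (188 ± 19.5 TPM), while AQP4, ALDH1L1 and PTPRZ1 had no count. Neuronal STMN2, SNAP25, GAD1, GAD2 and DCX had no count, and 5 of 14 neuron markers passed 1 CPM at a mean of 1.10 to 5.05 TPM. MBP (29.8 ± 4.05 TPM) stood out among 9 oligodendrocyte markers, of which MOG had no count. In bulk RNA, a few cells of another type and a low level in the microglia themselves cannot be told apart.

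Among named nuclear entries, the most abundant were those of the cytoskeleton, iron storage, the lysosome and translation. The largest of the ribosomal entries (113674 TPM), another of them (7159 TPM) and mitochondrially encoded genes such as MT-CO2 (22077 TPM) lay higher, and an entry with no symbol (ENSG00000310376) stood at 3623 TPM. TMSB4X, the actin-sequestering thymosin beta 4, led the nuclear genes with 6943, 6919, 5976 and 6269 TPM. SPP1, the secreted phosphoprotein osteopontin, followed at 3575, 5764, 6813 and 4557 TPM, so its place moved with the library. FTL, the ferritin light chain, stood at 5571, 6224, 3936 and 4033 TPM. PSAP, the precursor of the saposins that help lysosomal enzymes act on sphingolipids, varied less, at 5586, 4693, 4577 and 4698 TPM. The 100 highest named nuclear entries made up 14.3 ± 0.592% of all TPM.

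**Figure D1:**
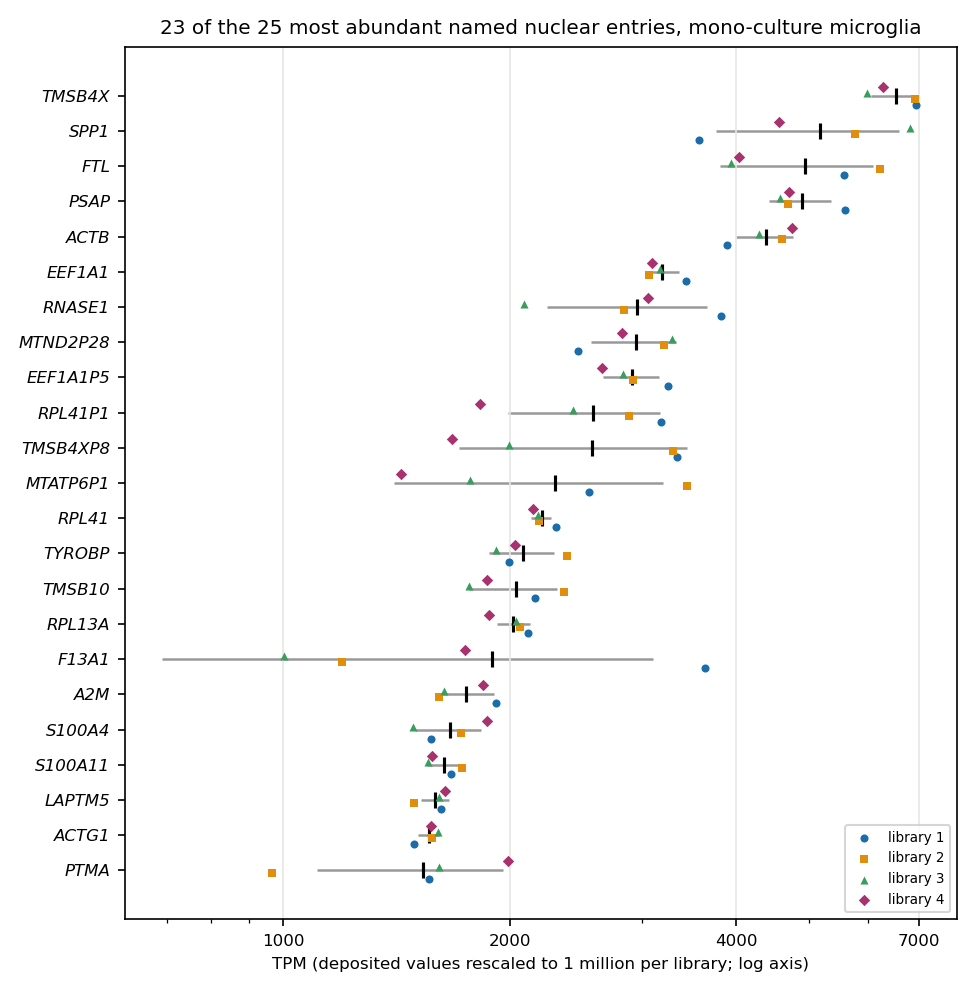
TPM (log axis) of 23 of the 25 named nuclear entries with the highest mean, with a symbol for each of the 4 libraries, a black tick for the mean and a grey bar for the mean ± SD. Most entries hold their level, such as LAPTM5 between 1490 and 1641 TPM, whereas F13A1 runs from 1002 to 3641 TPM.

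Other genes among the 25 highest named nuclear entries fall into a few groups. Cytoskeletal and nuclear-cytoplasmic genes were ACTB (4383 ± 378 TPM), ACTG1, TMSB10 and PTMA. Genes of translation were EEF1A1 (3189 ± 165 TPM), RPL41 and RPL13A. Myeloid genes were TYROBP, the adaptor of TREM2 (2083 ± 208 TPM), LAPTM5, a lysosomal membrane protein of blood cells (1590 ± 68.0 TPM), S100A4 and S100A11. Secreted products were RNASE1, a pancreatic-type ribonuclease (2951 ± 710 TPM), A2M, a protease inhibitor (1751 ± 152 TPM), and F13A1, the A subunit of coagulation factor XIII. RNASE1 was lowest in library 3, at 2091 TPM against 2837 to 3816 TPM in the others. F13A1 was spread most widely, at 3641, 1197, 1002 and 1741 TPM. Another 5 of the 25 are pseudogene entries (MTND2P28, EEF1A1P5, RPL41P1, TMSB4XP8 and MTATP6P1). These resemble an abundant parent gene, so how reads were divided between them is uncertain. The same holds for FTH1, the ferritin heavy chain, which has many processed copies and shares 62.4% of its exonic bases with BEST1 on the opposite strand. It was at 91.2 ± 13.9 TPM, far below FTL.

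Of 19850 protein-coding genes in GENCODE 29, 55.9% were expressed, 21.0% had no count in any library and 5.74% had a mean of at least 100 TPM. Against this, 177 of 304 listed receptors (58.2%), 73 of 120 listed transcription factors (60.8%) and 101 of 233 listed secreted products (43.3%) were expressed. A list chosen for its relation to myeloid cells holds genes that are high in macrophages, so these shares describe the lists and nothing more.

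**Figure D2:**
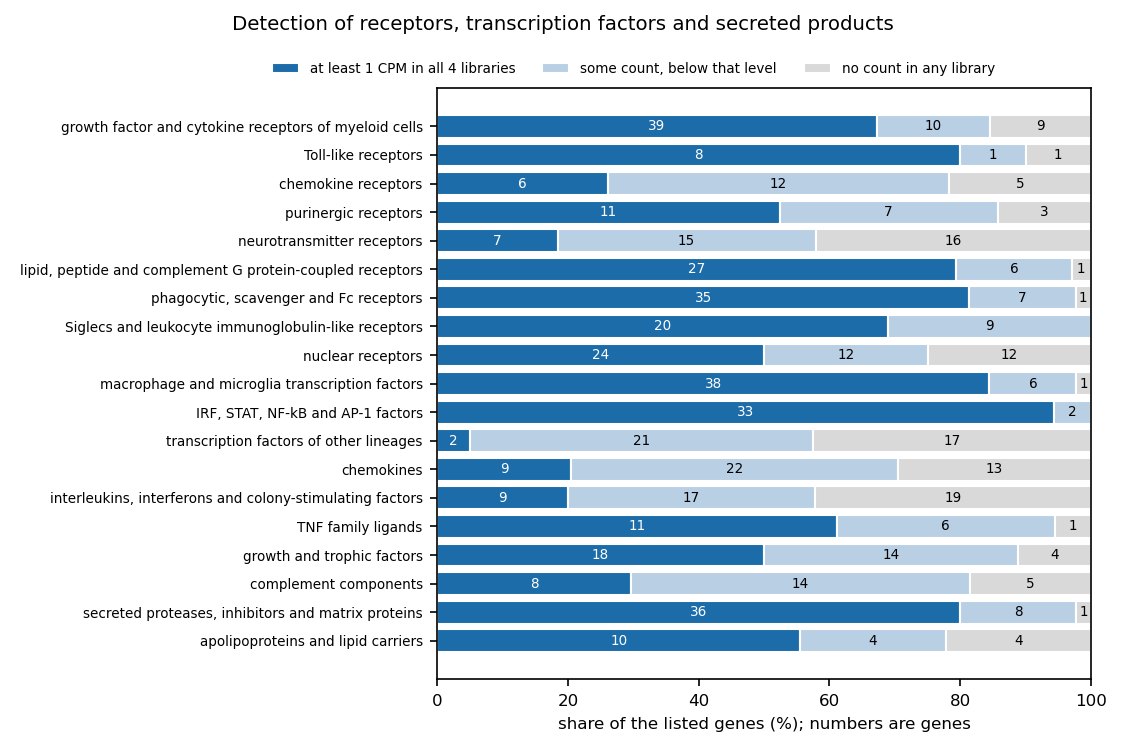
Share of the genes of each list (%, horizontal axis) that were expressed, trace or without a count, with the number of genes printed in each bar. The list of IRF, STAT, NF-kB and AP-1 factors is almost filled (33 of 35 expressed), while 2 of 40 transcription factors of other lineages and 7 of 38 neurotransmitter receptors were expressed.

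Among growth factor and cytokine receptors, 39 of 58 were expressed, 10 were trace and 9 had no count. CSF1R, the receptor of both supplied cytokines, was the highest, at 889, 819, 895 and 1036 TPM. IFNGR1, the ligand-binding chain of the interferon gamma receptor, was close to it at 876, 813, 830 and 1011 TPM. These 2 means differed by less than either SD, although CSF1R was above IFNGR1 in every library. TNFRSF1B (379 ± 30.9 TPM), IL13RA1 (368 ± 44.0 TPM) and TGFBR1 (287 ± 65.3 TPM) came next. The receptors of other haematopoietic growth factors FLT3 and KIT had no count, nor did the IL-2 receptor chains IL2RA and IL2RB, whereas the shared chain IL2RG was expressed. The type I interferon receptor chain IFNAR1 (57.8 ± 7.81 TPM) stood above its partner IFNAR2 (3.81 ± 1.27 TPM), and IL10RA (148 ± 18.1 TPM) above IL10RB (2.21 ± 1.09 TPM). IFNAR2 and IL10RB share 44.2% and 38.1% of their exonic bases with other entries on the same strand, chiefly a readthrough of the pair, so their low levels are uncertain. The widest spread in this list was that of IL21R, at 15.9, 10.2, 4.34 and 18.7 CPM, lowest in library 3.

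Toll-like receptors recognise microbial products, and 8 of 10 were expressed. TLR2 was at 136, 119, 156 and 154 TPM and TLR4 at 134, 96.5, 117 and 120 TPM, and TLR7, TLR6 and TLR1 had means of 57.3 to 97.9 TPM. TLR9, the receptor of unmethylated CpG DNA, had no count, but 86.3% of its exonic bases lie in another entry on the same strand. TLR3, which senses double-stranded RNA, was trace.

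Chemokine receptors were largely silent, with 6 of 23 expressed. CCR1 was at 323, 248, 353 and 328 TPM, and CX3CR1, the receptor of neuronal fractalkine, at 76.8, 106, 89.0 and 136 TPM. CCRL2, CXCR4 and CXCR2 were expressed at means of 3.02 to 15.2 TPM. CCR2, which marks blood monocytes, had 9 counts in all, and CCR4, CCR6, CCR8 and CXCR1 had none, with CCR6 sharing 69.2% of its exonic bases with another entry on the same strand.

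Of 21 purinergic receptors 11 were expressed. P2RX4 (70.7 ± 6.95 TPM), an ATP-gated channel, and P2RY6 (69.8 ± 5.50 TPM), a UDP receptor linked to phagocytosis, led. ADORA3 and P2RX7 followed at 55.2 ± 11.2 and 35.1 ± 11.7 TPM. P2RY13, a close relative of P2RY12, was at 6.35, 8.20, 6.16 and 14.2 CPM, and P2RY12 was at 14.6, 22.6, 21.6 and 30.9 CPM, so both were highest in library 4. The adenosine receptors ADORA1 and ADORA2A were trace, the latter overlapped over 56.8% of its exonic bases on the same strand.

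Neurotransmitter receptors had the lowest share of expressed members among the receptor lists, 7 of 38, and 16 had no count. Expressed ones included the adrenergic receptor ADRB1, the serotonin receptors HTR7 (51.3 ± 1.83 TPM) and HTR2B (43.8 ± 15.7 TPM), the histamine receptors HRH1 and HRH2, and the muscarinic receptor CHRM3. HTR7 was steady, whereas HTR2B was at 14.5, 29.6, 29.9 and 36.0 CPM, lowest in library 1. HRH1 went the other way, at 131, 66.1, 54.1 and 56.9 CPM. The ionotropic glutamate receptor genes GRIA1, GRIA2, GRIA3 and GRIN1 had no count.

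Receptors for lipids, peptides and complement fragments were expressed in 27 of 34 cases. C3AR1, which binds the complement fragment C3a, was at 563, 567, 648 and 749 TPM, and C5AR1 at 477, 494, 477 and 416 TPM. GPR34, a lysophosphatidylserine receptor of microglia, was at 506, 435, 464 and 589 TPM. LPAR6 and PTAFR, receptors of lysophosphatidic acid and platelet-activating factor, had means of 353 and 143 TPM. The formyl peptide receptor family member FPR3 was the least even of the list, with a 4.73-fold range from 2.95 CPM in library 4 to the highest value in library 3.

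The phagocytic, scavenger and Fc receptors were the most abundant receptor list, with 35 of 43 expressed and 19 at 100 TPM or more. FCER1G, the Fc receptor gamma chain, stood at 1318, 1362, 1269 and 1541 TPM. VSIG4, a receptor of complement C3b on tissue macrophages, was at 1085, 1041, 1068 and 1314 TPM. The haemoglobin scavenger receptor CD163 was at 1004, 696, 705 and 913 TPM, and the mannose receptor MRC1 at 956, 523, 517 and 858 TPM, so for both of them libraries 1 and 4 lay above libraries 2 and 3. STAB1 (643 TPM), CD36 (566 TPM), FCGRT (467 TPM) and MSR1 (286 TPM) were also high, whereas MARCO, TREM1 and STAB2 were trace and SCARA3 had no count. Of the activating and inhibitory IgG receptors, FCGR1A was at 135 TPM and FCGR2A at 71.0 TPM, above FCGR3A (4.37 TPM) and FCGR2B (2.59 TPM). The copies of this family are closely alike, so reads shared between them make these levels uncertain. FCGR2B had the widest spread of the list, at 10.3, 2.88, 4.55 and 4.92 CPM.

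The list of Siglecs and leukocyte immunoglobulin-like receptors also holds receptors of other families, among them SIRPA, CD300A and PILRA. Its members mostly carry inhibitory signals, and 20 of 29 were expressed. SIRPA, the receptor of the CD47 signal that restrains engulfment, led at 336, 273, 322 and 280 TPM. CD300A (135 ± 23.2 TPM), PILRA (89.0 ± 9.26 TPM), SIGLEC9 (63.1 ± 7.79 TPM) and SIGLEC1 followed. SIGLEC1, also called sialoadhesin, varied most, at 183, 139, 79.2 and 149 CPM, with library 3 lowest. The inhibitory LILRB2 (50.7 ± 3.71 TPM) and LILRB5 (49.7 ± 6.20 TPM) were close together, and LILRB4 was trace.

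Nuclear receptors bind lipid-soluble ligands and act on DNA directly. Of 48, 24 were expressed, 12 were trace and 12 had no count, and none had a mean of 100 TPM. ESRRA (43.9 ± 5.19 TPM), RXRA (42.8 ± 2.62 TPM), NR3C1, the glucocorticoid receptor (38.3 ± 6.40 TPM), NR1D2 and RXRB were the highest, and neighbouring means among these 5 differed by less than the larger of their SDs. The lipid sensors NR1H2, NR1H3 and PPARG had means of 33.6, 23.2 and 18.2 TPM. RORB, NR1H4, HNF4A and HNF4G had no count. The largest spread was that of THRB, a thyroid hormone receptor, at 13.5, 13.2, 15.7 and 23.3 CPM.

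**Figure D3:**
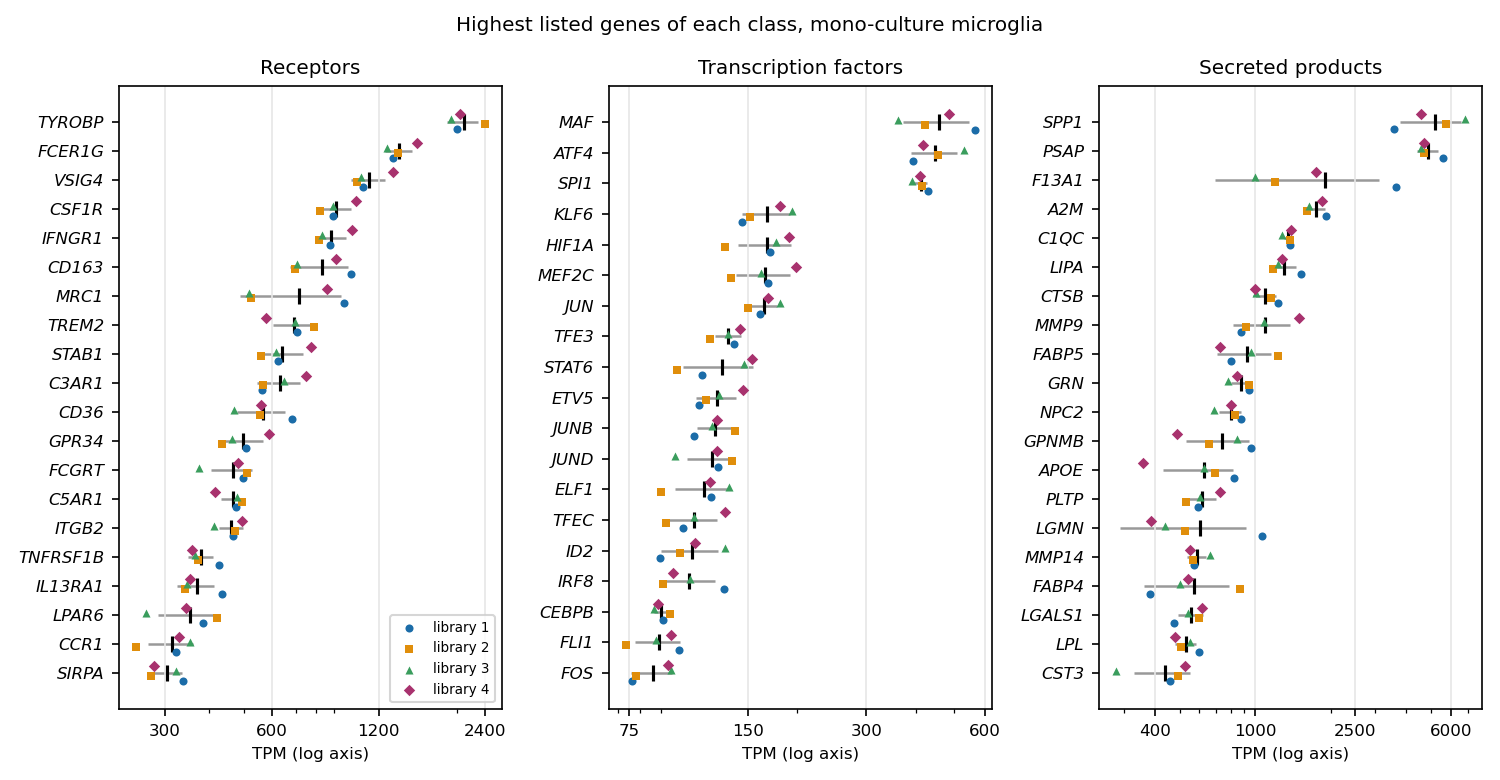
TPM (log axis) of the highest listed genes in each class (20 receptors, 19 transcription factors and 20 secreted products), with a symbol for each library, a black tick for the mean and a grey bar for the mean ± SD. Transcription factors lie on a lower range than the other classes, led by MAF, ATF4 and SPI1, and the secreted list holds the widest bars, those of F13A1 and LGMN.

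Transcription factors of the macrophage programme were nearly complete, with 38 of 45 expressed. MAF, a factor that holds macrophages in a differentiated state, was at 565, 423, 362 and 486 TPM. SPI1, which encodes PU.1, was at 431, 415, 391 and 411 TPM, a smaller relative spread than that of MAF. IRF8, the partner of PU.1 in microglia, was at 130, 91.3, 107 and 96.9 TPM. KLF6, HIF1A and MEF2C had means of 166 to 168 TPM, and RUNX1 of 43.8 TPM. SALL1 had no count and its relative SALL3 had 6 counts. MYB and GFI1 were trace. CEBPD, at 31.5, 26.4, 15.7 and 21.1 CPM, was the only member of the 34 with a mean of at least 5 CPM that varied 2-fold (against 4.36% of all such genes), and it was lowest in library 3.

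The signal-dependent factors of the IRF, STAT, NF-kB and AP-1 families were expressed in 33 of 35 cases, and their summed level had the smallest range of all lists (1.03-fold between the highest and the lowest library). ATF4, the effector of the integrated stress response, led at 393, 455, 530 and 417 TPM. JUN was at 167, 169, 172 and 166 CPM, a 1.04-fold range. STAT6 (129 ± 25.9 TPM), JUNB and JUND followed. IRF4 was the least even, at 5.02, 4.90, 6.45 and 10.2 CPM. FOSB and EGR3 were trace.

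Only TAL1 and LEF1 were expressed among 40 transcription factors of other lineages. TAL1, a factor of early blood formation, was at 103, 85.5, 68.8 and 77.1 CPM with a mean of 51.8 TPM, and LEF1 at 2.65 TPM. OLIG1, LHX2 and OLIG2 were trace at means of 0.857 to 2.08 TPM. GATA1 and GATA2, which act with TAL1 in erythroid cells, had no count, and neither did PRDM14, TBXT, SOX2 or NEUROD1.

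Of 44 chemokines in the table, 9 were expressed. CXCL16, a membrane-anchored chemokine and scavenger receptor, was at 170, 211, 148 and 176 TPM. CCL2, a monocyte attractant, was at 80.9, 110, 183 and 180 TPM. CCL4 was at 7.68, 20.2, 18.2 and 19.8 CPM and CCL3 at 4.92, 10.2, 10.4 and 11.4 CPM, both lowest in library 1. CCL4L2, a near-identical copy of CCL4, had the widest spread of the 8 members with a mean of at least 5 CPM, at 2.59, 10.4, 6.39 and 7.65 CPM, and reads shared between the copies make its level uncertain. CXCL12 was highest in library 1, at 46.5, 22.2, 21.6 and 20.3 CPM. CCL11, CCL15, CCL17 and CCL19 were among 13 chemokines with no count.

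Interleukins, interferons and colony-stimulating factors were expressed in 9 of 45 cases. EBI3, a subunit shared by IL-27 and IL-35, was at 46.2, 47.5, 48.3 and 60.9 TPM. IL1B was at 16.5, 39.0, 53.5 and 52.5 TPM, lowest in library 1. IL18BP, IL16 and IL1RN, the IL-1 receptor antagonist, had means of 11.5 to 12.2 TPM. IL10 was at 4.06 TPM and CSF1, which encodes M-CSF, at 2.66 TPM. IL34, the gene of the other supplied cytokine, had 7 counts over all libraries. IL6 had 21 counts, and IL12A, IL12B, IFNB1, IFNG and CSF2 had none. The genes IL2, IL3, IL4 and IL9 of lymphoid cytokines also had no count.

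Ligands of the TNF family were expressed in 11 of 18 cases. TNFSF15 (a mean of 51.4 TPM), TNFSF13B, the B cell survival factor BAFF (33.9 ± 4.04 TPM), and TNF (19.3 ± 5.49 TPM) led, followed by TNFSF13 and TNFSF12. TNF was at 6.15, 9.48, 11.5 and 9.15 CPM, again lowest in library 1. TNFSF10, which encodes TRAIL, was at 6.01, 6.71, 3.17 and 5.04 CPM. FASLG had no count.

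Growth and trophic factors were expressed in 18 of 36 cases. Besides PSAP, GRN, the lysosomal and secreted progranulin, was at 944, 945, 777 and 850 TPM. TGFB1, which acts on microglia themselves, was at 174, 172, 163 and 184 TPM. VEGFB was at 78.1 ± 16.1 TPM and GAS6, the ligand of the engulfment receptors AXL and MERTK, at 62.9 ± 22.9 TPM. GAS6 was highest in library 1, at 191, 133, 82.3 and 93.3 CPM, and so was IGF1, at 17.0, 8.42, 7.45 and 8.98 CPM. The neurotrophins BDNF and NTF3 and the EGF receptor ligand EREG had no count. Of the 16 members with a mean of at least 5 CPM, 11 were lowest in library 3, against 28.9% of all such genes.

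Complement genes were expressed in 8 of 27 cases and were headed by the 3 chains of C1q, which starts the classical pathway. C1QC was at 1379, 1382, 1279 and 1386 TPM. C1QB was at 498, 402, 336 and 335 TPM, and C1QA at 241, 257, 147 and 236 TPM. The 3 chains join in equal numbers in the protein, and here their mean TPM differed, from 220 for C1QA to 1356 for C1QC. C3 was at 91.6 ± 20.1 TPM and C2 at 10.7 ± 0.821 TPM. The proteases C1R and C1S that act with C1q had 2 and 21 counts. SERPING1, the inhibitor of those proteases, was at 21.1, 13.1, 9.98 and 10.7 CPM. C6, C8A, C8B and CFI had no count.

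Secreted proteases, inhibitors and matrix proteins were expressed in 36 of 45 cases, 17 of them at 100 TPM or more. SPP1, F13A1 and A2M led, and CTSB, the lysosomal cathepsin B, was at 1228, 1156, 1009 and 994 TPM. MMP9, a gelatinase, was at 877, 918, 1084 and 1489 TPM, highest in library 4. GPNMB (740 TPM), MMP14 (586 TPM), LGALS1 (557 TPM) and CST3 (439 TPM) were also abundant. MMP3 had no count, FN1 was expressed at a mean of 0.278 TPM, and LYZ, the lysozyme of blood monocytes, at 71.5 TPM. In this list 11 of 33 genes with a mean of at least 5 CPM varied 2-fold, against 4.36% of all 10428 such genes.

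Of 18 apolipoproteins and lipid carriers, 10 were expressed and 8 had a mean of at least 100 TPM. LIPA, the lysosomal acid lipase, was at 1526, 1180, 1233 and 1283 TPM. The fatty acid carrier FABP5 was at 800, 1231, 961 and 726 TPM, and NPC2, which hands cholesterol out of the lysosome, at 878, 833, 686 and 804 TPM. APOE, the main lipid carrier of the brain, was at 822, 689, 627 and 357 TPM, lowest in library 4. FABP4 was at 233, 580, 281 and 312 CPM, highest in library 2. APOA1, APOB, APOC4 and APOD had no count, although APOC4 shares 83.0% of its exonic bases with a readthrough entry.

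Metallothioneins were nearly silent. None of 8 was expressed, although these genes, which bind zinc and cadmium, are active in many cultured cells. MT2A, the highest, was at 0.631, 0.639, 0.633 and 0.869 CPM (68 counts in all), and MT1A and MT1M had no count. The members are much alike, so the division of reads between them is uncertain. In contrast, all 15 heat shock genes were expressed, led by the constitutive chaperone HSPA8 (1321 ± 90.4 TPM). MHC class II genes, which present peptides to T cells, were expressed in 9 of 12 cases, with CD74 at 430, 465, 373 and 621 CPM and HLA-DRA at 76.6, 83.4, 67.3 and 120 CPM.

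Most genes held their level from batch to batch. Over 10428 entries with a mean of at least 5 CPM, the highest library was a median of 1.29-fold above the lowest, and 455 (4.36%) varied at least 2-fold. The coefficient of variation beyond counting error had a median of 0.107 and a 95th percentile of 0.288. The share of 2-fold genes depended on level: 188 of 1446 genes between 5 and 10 CPM, 3.30% between 10 and 100 CPM, 1.69% between 100 and 1000 CPM and 8.05% (7 of 87) above 1000 CPM. The median absolute log2 difference between 2 libraries was smallest for libraries 3 and 4 (0.14) and largest for libraries 2 and 3 (0.20). The first principal component held 46.3% of the variance, with libraries 1 and 2 on one side and libraries 3 and 4 on the other. Any pair of libraries differed in its counts beyond sampling noise, with a chi-square 20.3 to 51.4 times its degrees of freedom, a measure that sets reads against counting error alone. Each batch holds 1 library, so batch and library cannot be told apart.

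A library is said to stand apart where the widest gap between neighbouring log2 CPM values of a gene set it alone. Library 1 stood apart above the others in 9 of the 25 genes with the largest spread beyond counting error (named genes with a mean of at least 10 CPM). It stood apart below in 4, and library 3 stood apart below in 4. Over all 455 variable genes, library 1 stood apart below in 86 (18.9%) and above in 71 (15.6%). Library 3 stood apart below in 69 (15.2%). Among all genes with a mean of at least 5 CPM, these 3 patterns made up 10.7%, 11.3% and 9.52%. By the lowest value alone, library 1 was lowest in 138 of the 455 (30.3%, against 25.5% of all such genes). Library 3 was lowest in 148 (32.5%, against 28.9%). Library 1 was highest in 137 (30.1%, against 27.9%). Without library 1, 14 of the 25 still varied 2-fold and the number over all genes was 232. Without library 3 it was 251. A range over fewer libraries tends to be narrower whichever library is left out.

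**Figure D4:**
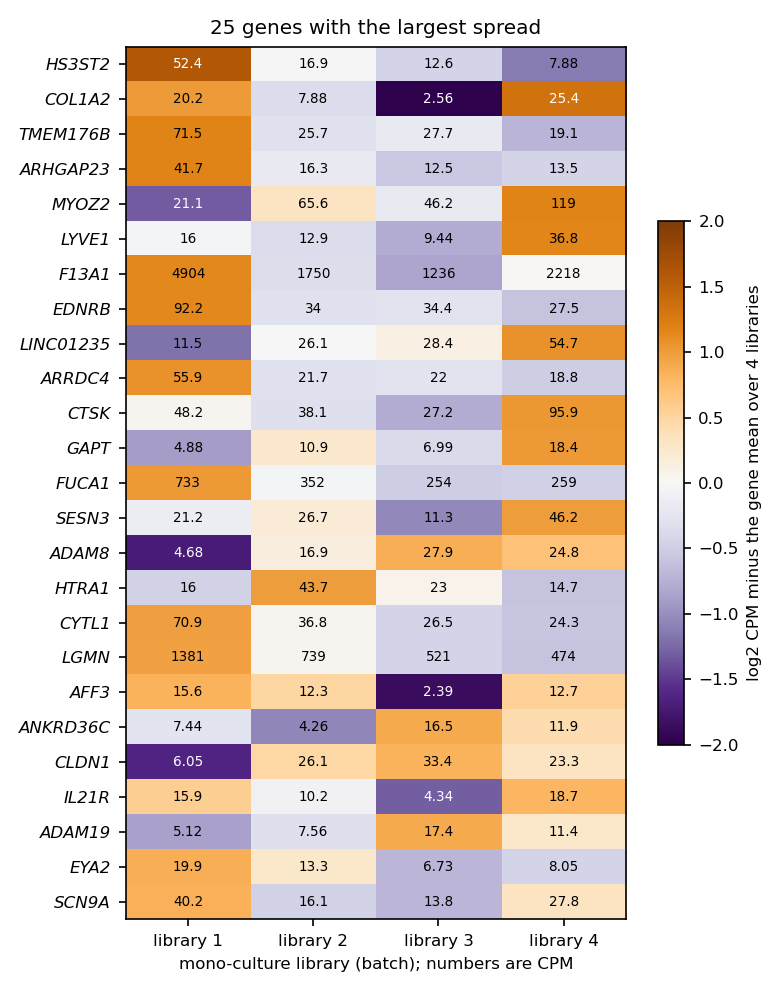
Heat map of the 25 genes with the largest spread, where colour is log2 CPM minus the mean of the gene over the 4 libraries and the printed numbers are CPM. Library 1 is high for HS3ST2, F13A1, EDNRB, FUCA1 and LGMN and low for MYOZ2, ADAM8 and CLDN1.

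Several abundant genes were highest in library 1. F13A1 was at 4904, 1750, 1236 and 2219 CPM, a 3.97-fold range. Of 30 lysosome genes as a list, 11 were highest in library 1 (against 27.9% of all genes) and 15 in library 2 (against 28.1%). LGMN, the lysosomal asparaginyl protease legumain, was at 1381, 739, 521 and 474 CPM, and FUCA1, the lysosomal fucosidase, at 733, 352, 254 and 259 CPM. For LGMN and FUCA1 library 1 lay well above the others, which were closer to each other. HS3ST2, a heparan sulfate sulfotransferase, was at 52.4, 16.9, 12.6 and 7.88 CPM, a 6.66-fold range. EDNRB, an endothelin receptor, was at 92.2, 34.0, 34.4 and 27.5 CPM. TMEM176B, ARHGAP23 and CYTL1 had the same order of library 1 above the rest, with ranges of 2.92-fold to 3.74-fold.

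Library 1 was lowest for another set. ADAM8, a membrane metalloprotease of activated myeloid cells, was at 4.68, 16.9, 27.9 and 24.8 CPM, and the tight junction gene CLDN1 at 6.05, 26.1, 33.4 and 23.3 CPM. MYOZ2, known as a protein of the muscle sarcomere, was at 21.1, 65.6, 46.2 and 119 CPM, a 5.62-fold range, with a mean of 70.4 TPM. LINC01235 was at 11.5, 26.1, 28.4 and 54.7 CPM. In both of these genes library 4 was highest. VEGFA, the main angiogenic factor, was at 4.82, 7.30, 13.2 and 9.73 CPM. Of 20 NF-kB inflammatory genes with a mean of at least 5 CPM, 12 were lowest in library 1 (against 25.5% of all genes), yet their summed level of 1993, 1647, 1955 and 1527 CPM was highest there. Of 30 cell cycle genes, 18 were lowest in library 1 (against 25.5% of all genes). CCNE2, a cyclin of S phase entry, was the most uneven cell cycle gene, at 4.68, 7.35, 9.70 and 12.2 CPM.

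TXNIP and its relative ARRDC4, alpha-arrestins that limit glucose uptake, were both highest in library 1. ARRDC4 was at 55.9, 21.7, 22.0 and 18.8 CPM and TXNIP at 709, 369, 293 and 315 CPM. TXNIP was chosen after its values were seen. Their promoters are printed because both genes are known targets of carbohydrate response factors, which bind pairs of E boxes. The 250 bases before the start are given 5′ to 3′ from RefSeq (GRCh38.p14), for TXNIP on the minus strand at chr1:145996580-145996829 and for ARRDC4 on the plus strand at chr15:97960453-97960702. Capitals mark matches, on either strand, to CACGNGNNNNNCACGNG or CACGTG.
TXNIP: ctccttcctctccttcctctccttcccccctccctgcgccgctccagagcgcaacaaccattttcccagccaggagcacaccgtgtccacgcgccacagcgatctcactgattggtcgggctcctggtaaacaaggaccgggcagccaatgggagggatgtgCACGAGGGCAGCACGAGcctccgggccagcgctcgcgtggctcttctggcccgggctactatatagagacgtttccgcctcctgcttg
ARRDC4: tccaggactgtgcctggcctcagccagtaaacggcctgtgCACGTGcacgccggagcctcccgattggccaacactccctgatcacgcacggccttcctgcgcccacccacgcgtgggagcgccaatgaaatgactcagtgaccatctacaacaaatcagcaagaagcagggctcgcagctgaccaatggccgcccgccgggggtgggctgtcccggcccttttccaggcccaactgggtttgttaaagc
The match of TXNIP is to the paired motif and begins at position -88 from the start, and that of ARRDC4 is to CACGTG at position -210. The paired motif stands in 16 of 35116 promoters of the same length (0.0456%) and CACGTG in 2228 (6.34%). RefSeq lists a second start of TXNIP, whose window held neither motif.

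COL1A2, a chain of fibrillar collagen I, had the widest range of the 25, at 20.2, 7.88, 2.56 and 25.4 CPM (9.93-fold). Its partner chain COL1A1 was at 0.299, 0, 0.230 and 0 CPM and did not have that order. COL3A1 was at 2.46, 0, 3.22 and 0 CPM and DCN at 0.199, 0, 0.201 and 0 CPM, so these mesenchymal genes, like LUM, had counts in libraries 1 and 3 and none in libraries 2 and 4. Other members of the list had other orders: LOX was at 0.432, 2.02, 0.547 and 0.753 CPM and ACTA2 at 4.05, 6.82, 5.55 and 6.49 CPM, both highest in library 2, and COL6A3 at 0.498, 1.17, 0.921 and 1.22 CPM. The summed level of 12 fibroblast and mesenchymal markers lay between 16.4 and 36.1 CPM, and its part in the values of other genes was not tested. LYVE1, a hyaluronan receptor of border macrophages, was highest in library 4, at 16.0, 12.9, 9.44 and 36.8 CPM. The collagen-degrading cathepsin CTSK followed the same order, at 48.2, 38.1, 27.2 and 95.9 CPM. AFF3, at 15.6, 12.3, 2.39 and 12.7 CPM, and SESN3, at 21.2, 26.7, 11.3 and 46.2 CPM, were lowest in library 3.

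Genes of lipid synthesis varied together. Of 23 cholesterol synthesis and uptake genes with a mean of at least 5 CPM, 16 varied 2-fold (against 4.36% of all genes), 22 were lowest in library 3 (against 28.9% of all genes) and 17 were highest in library 4 (against 23.1% of all genes). Their summed level was 2217, 1846, 1251 and 2658 CPM. The sterol sensor partner INSIG1 was at 146, 98.8, 67.5 and 162 CPM, and SQLE, the squalene epoxidase, at 308, 235, 186 and 404 CPM. CYP51A1 was the exception, lowest in library 2 (against 26.0% of all genes), and 79.4% of its exonic bases lie in another entry on the same strand. The sterol element letters TCACNCCAC, searched on both strands, stood in none of 22 promoters of 17 of these genes in the RefSeq table and in 310 of 35116 promoters (0.883%).

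Fatty acid synthesis and desaturation had the same order. All 11 members with a mean of at least 5 CPM were lowest in library 3, against 28.9% of all genes. Of these members, 10 were highest in library 4, against 23.1% of all genes. The letters TCACNCCAC stood in 1 of 14 promoters of 10 of these genes (7.14%), that of MID1IP1. The stearoyl-CoA desaturase SCD was at 1081, 693, 393 and 1135 CPM, and the desaturase FADS2 at 218, 207, 102 and 326 CPM. FASN, the fatty acid synthase, was at 154, 121, 89.6 and 193 CPM. Without library 3 the summed range of this list went from 2.09-fold to 1.46-fold, and that of the cholesterol list became 1.44-fold. Library 3 also had the lowest share of mitochondrially encoded counts (4.84%) and the highest share on the ribosomal entries (3.92%), and the part of these in the lipid genes was not tested.

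**Figure D5:**
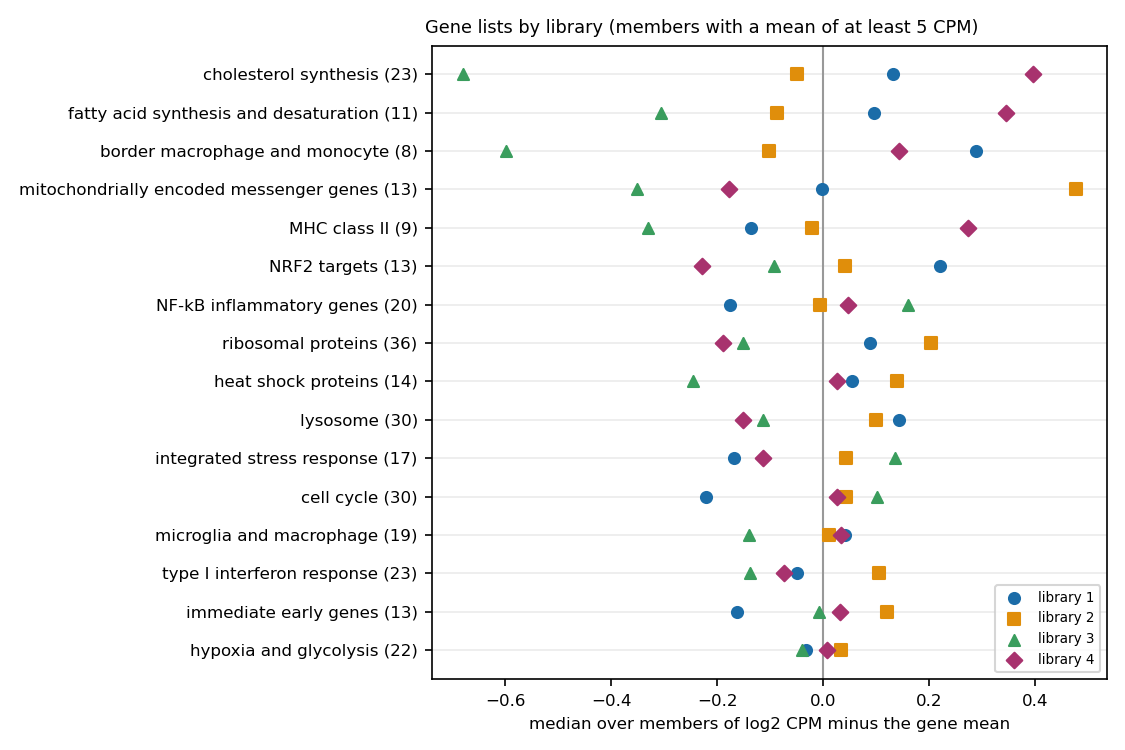
Median over the members of each list of log2 CPM minus the gene mean (horizontal axis), with a symbol for each library and the number of genes in brackets. Cholesterol synthesis is lowest in library 3 (-0.68) and highest in library 4 (0.40), and the microglia and macrophage markers stay between -0.14 and 0.04.

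Border macrophage and monocyte markers were also lowest in library 3. This held for all 8 members with a mean of at least 5 CPM, against 28.9% of all genes. Besides F13A1, MRC1, CD163 and LYVE1, these were COLEC12, STAB1, CD36 and S100A9, the last at 17.0, 11.8, 3.94 and 10.4 CPM. Their summed level was 13208, 8552, 6783 and 9756 CPM, and the range of 1.95-fold became 1.44-fold without library 1 and 1.54-fold without library 3. By contrast, the summed level of the 19 microglia and macrophage markers with a mean of at least 5 CPM varied 1.17-fold. Single members were less even: P2RY12, C1QA and P2RY13, 3 of the 19, varied 2-fold, against 4.36% of all genes. In the border macrophage and monocyte list 4 of the 8 varied 2-fold.

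Mitochondrially encoded messenger genes were highest in library 2 for 12 of 13 members (against 28.1% of all genes). MT-CO2, a subunit of cytochrome c oxidase, was at 4354, 6468, 2911 and 3594 CPM. Their summed range was 1.78-fold, and 1.27-fold without library 2. Ribosomal protein genes were also highest in library 2, for 32 of 36 members (against 28.1% of all genes). They were lowest in library 4 (20 members, against 19.6% of all genes) or library 3 (16 members, against 28.9%). As a class, 417 nuclear genes whose exons together cover under 1500 bases deviated by medians of 0.02, 0.17, -0.15 and -0.08 on the log2 scale. This class was also highest in library 2. Exons of all transcripts of a gene are joined here, so this is not the length of a transcript. The part of length in these lists was not tested.

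MHC class II genes were lowest in library 3 for 6 of 9 members (against 28.9% of all genes) and highest in library 4 for 5 (against 23.1%). HLA-DPB1 was at 3.89, 6.45, 4.78 and 8.92 CPM. Their summed range of 1.57-fold became 1.24-fold without library 4 and 1.32-fold without library 3. NRF2 targets had a range of 1.51-fold, which became 1.45-fold without library 2 and 1.49-fold without library 4, and HMOX1, the haem oxygenase, was at 497, 388, 380 and 243 CPM. In the lysosome list ATP6V0D2, a proton pump subunit of macrophages and osteoclasts, had the widest range, at 58.7, 35.2, 30.6 and 22.2 CPM. Among integrated stress response genes, 10 of 17 were highest in library 3, against 21.0% of all genes. PSAT1 and PHGDH, enzymes of serine synthesis, were at 31.1, 69.8, 80.0 and 34.6 CPM and at 14.8, 26.7, 27.5 and 11.8 CPM, so both were higher in libraries 2 and 3 than in libraries 1 and 4. Heat shock genes were lowest in library 3 for 12 of 14 members (against 28.9% of all genes), with HSPA1A at 182, 197, 105 and 134 CPM. Type I interferon response genes varied 1.17-fold in sum, with IFI6 the most uneven at 24.7, 37.1, 16.7 and 40.0 CPM. The immediate early gene IER2 was at 11.5, 24.1, 15.7 and 17.7 CPM, lowest in library 1, as were 9 of 13 genes of that list (against 25.5% of all genes).

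The steadiest genes with a mean of at least 100 CPM differed by 1.02-fold to 1.03-fold between the highest and the lowest library. FLII, an actin-binding gelsolin relative, was at 265, 265, 263 and 267 CPM, and RPA1, a single-stranded DNA-binding protein of replication, at 136, 135, 134 and 133 CPM. HNRNPAB, BPNT2, TNFAIP8, STARD7, GSPT1, CCT2, TMEM230 and CCAR1 completed the 10. For 9 of the 10 there was no spread beyond counting error, so the order among them is not resolved.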

How the data were processed

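The RNA was sequenced in bulk. Per the submitters' processing notes, reads were aligned with HISAT2 2.1.0 to GRCh38 and counted with featureCounts 2.12.3. Which annotation release and strand setting were used, and how overlaps were handled, is not stated in those notes. The deposited table of raw counts per gene holds 78899 entries, of which 42163 matched a symbol and 34666 had a count in these libraries. The authors also deposited length-scaled values named TPM, used as signal because their totals per library ran from 975379 to 1138850. They were rescaled to 1000000 per library to compare genes.

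CPM used TMM effective sizes over the 4 libraries (edgeR 4.0.16 in R 4.3.3). The spread of a gene is its highest over its lowest CPM (variable: at least 2-fold with a mean of at least 5 CPM), and its coefficient of variation after removing counting error. An intercept-only edgeR fit gave a common biological coefficient of variation of 0.147. DESeq2 1.42.0 size factors, other floors, thinned counts, a different value table and leaving out each library were alternatives. Biotypes and coordinates are from GENCODE 29. Python 3.11.15 with pandas 2.3.3 computed the remaining values, and the steps were tested on simulated data.

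There is 1 group, so no test was run and no p-value is given. The labels call the batches independent. Tri-culture libraries were not analysed here. The 47 lists hold 1051 symbols, 1050 of them in the table. The libraries and the lists were chosen with earlier results of these data known. Named genes are the 25 most abundant nuclear genes, up to 5 highest, up to 4 without a count and the most variable of each list of receptors, transcription factors and secreted products, the 25 most variable and 10 steadiest genes, the widest of each programme list, the 2 highest markers of each cell type, and 11 fixed genes. Every other gene named was chosen after its values were seen. Some genes the rule selects are not reported here.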

Additional observations from a re-analysis of the deposited data

Results flagged for a closer look

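For 225 values, 184 of them of single genes, the gap between the highest or lowest library and its nearest neighbour was divided by the whole range of the 4 libraries. In 11 of them it exceeded Dixon's critical value for 4 samples, which chance passes in about 1 group in 20. The 11 of 225 lie near that share, so the number flagged is about what chance would give. Some of the single genes had also been named because of their spread.

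Library 1 was high for HRH1, the histamine H1 receptor (131 CPM), IGF1 (17.0 CPM), TMEM176B (71.5 CPM), ARHGAP23 (41.7 CPM), EDNRB (92.2 CPM) and ARRDC4 (55.9 CPM). It was low for the chemokine CCL4 (7.68 CPM). Library 2 was high for the cytoskeletal actin ACTG1 (2495 CPM) and for the summed level of hypoxia and glycolysis genes (6913 CPM). Library 3 was low for the retinoid X receptor RXRB (33.0 CPM), and library 4 was low for the adenosine receptor ADORA3 (27.0 CPM).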

How the results depend on the processing

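No paired analysis was possible because there is 1 group and each batch holds 1 of its libraries. The number of variable genes depended on its thresholds: it was 1705 with a mean of at least 1 CPM, 153 with a mean of at least 20 CPM, 2167 at 1.5-fold and 63 at 3-fold, against 455. With other scalings it was 444 to 459, with counts thinned to equal depth 485, and from the deposited length-scaled values 518. The median difference between library pairs was 0.21 on the log2 scale with a mean of at least 1 CPM. The level of TMSB4X was 8632 TPM without mitochondrial genes. It was 10262 TPM without these and the 3 ribosomal entries, a setting chosen after seeing the data. Leaving out 1 library at a time gave 12564 to 12697 expressed entries, 232 to 329 variable genes, 56.4% to 66.1% on the first component, a pair median of 0.18 to 0.20, 3 to 5 lists with a summed range of at least 1.5-fold against 6, and 6388 to 6710 TPM for TMSB4X. Fewer libraries leave fewer components, fewer values that must pass the floor and fewer values to set a range. The shifts on leaving out a library therefore follow in part from the smaller number of libraries. The 25 most variable genes kept a range of at least 2-fold in 100 of 100 combinations of gene and scaling or thinning. These genes were chosen for their spread in the same data, and the scalings differ little, so that result is no check on them. Without library 1, 14 of the 25 kept such a range. The list ranges stayed within 1.5 times of their value in 175 of 175 combinations of list and scaling or filter. The values checked have no sign, so none could change direction. Under the alternatives run, 51 values of the main results stayed and 10 moved. Of the other values, 656 stayed and 97 moved. A count, share or range moved where it changed by more than 1.5 times, and a level or pair median where it changed by more than its SD. Differences below about 3 counts per library (0.0899 to 0.176 CPM) were not detectable at this depth.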
